A study of Solanum lycopersicum with 17 samples.

Results

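The gene models around the Ms10 locus of tomato form a stretch of chromosome 2, described here in floral buds of a male-sterile and a male-fertile line. The members are all gene models from Solyc02g079190 to Solyc02g082190 in identifier order. Of the 300 models in this range 4 were left out, Ms10 itself (Solyc02g079810) among them, so 296 of the 34727 models of the tables remain. Of the 300, 61 lie before Ms10 and 238 after it. The range was set by identifier alone, though with earlier results of these data known. The tables pair no gene names with these identifiers, so members are named by identifier, without roles, and positions are counted in gene models from Ms10.

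Ms10 encodes a bHLH transcription factor of the tapetum, the anther cell layer that feeds developing pollen, and plants without its function make no pollen. When an allele is carried from one line into another by crossing, the DNA beside it travels along until recombination cuts it off. Genes in such a linked segment can differ between lines in promoter or coding sequence, or in how well their reads align to a reference. A difference of that kind could appear as a shift between the lines that is kept at every stage, but need not. A shift kept at every stage is also not particular to such a segment. The sources used here do not say how the lines are related by descent, and the origin of the segment was not tested.

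The male-sterile line is ms1035 and the male-fertile line T-1082, and floral buds of both were taken at stages 1, 2 and 3, a numbering the labels leave undefined. No age, treatment or transgene is given. Each group held 3 libraries labelled as biological replicates, except fertile stage 1 with 2 (replicates 2 and 3), which makes 9 sterile and 8 fertile libraries. Libraries held 499608 to 817548 assigned reads and 18089 to 19320 models with reads. The recalled floral identity genes TAG1, TAP3, TM5 and MC had reads in 17 of 17 libraries, with lowest levels of 152, 76.0, 114 and 57.2 CPM, which are a gene's reads scaled to a common library total of 1e+06.

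Most reads of the segment came from models read in both lines. Between 194 and 212 members had reads in a library. Over all stages, members took 1.06% ± 0.0483 of assigned reads in sterile libraries (mean ± SD, n = 9) and 1.12% ± 0.143 in fertile libraries (n = 8). The lowest and highest shares were 1.01% and 1.17% in sterile and 0.923% and 1.30% in fertile libraries, so the lines overlapped. Without Solyc02g081170 alone the order of the means turned, with 1.01% ± 0.0495 in sterile and 0.970% ± 0.133 in fertile libraries. On the length-scaled RPKM level, 17 members had a mean of at least 100, 119 had 10 to 100 and 76 had 1 to 10. Another 41 had reads but less than 1 RPKM, and 43 had 0 reads in all 17 libraries (14.5% of members, against 32.5% of all models). The low-count filter passed 152 members (51.4%, against 39.1% of all models), and the 144 untested members had a median of 4.5 reads over all libraries and at most 101.

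The highest RPKM levels belonged to Solyc02g081170, with a mean of 939 RPKM over the 6 groups, and Solyc02g079950, with 917 RPKM. Solyc02g079950 stood at 615 ± 240.4, 792 ± 319 and 678 ± 334 CPM in sterile buds at stages 1, 2 and 3 and at 424 ± 37.2, 593 ± 119 and 709.9 ± 83.2 CPM in fertile buds. Its lines overlapped at every stage, and its difference averaged over the stages did not pass the test (log2 0.27, SE 0.24, edgeR adjusted p = 0.525).

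No member lost all its reads in one line at the depth used to define that. Of the 296 members, 0 had at least 30 reads in fertile and 0 in sterile libraries (0.173% of all models), and 0 had the reverse (0.0202% of all models). Below that depth, 15 members were read in fertile libraries alone, with at most 4 reads, and 10 in sterile libraries alone. The share of all models with such a pattern is not given here, so these counts show no trait of the segment. Mean depth also differed, with 613553 assigned reads in sterile and 686233 in fertile libraries. The one with the most reads, Solyc02g081490, is named after its values were seen. Its reads in sterile replicates 1, 2 and 3 were 3, 2 and 2 at stage 1, 2, 1 and 1 at stage 2, and 5, 1 and 2 at stage 3. Each of the 9 sterile libraries thus held at least 1 read of it, and each of the 8 fertile libraries held 0. It was not tested, since it fell below the low-count filter.

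Sterile and fertile buds were compared at each stage to ask which members differ between the lines at that stage. Each kind of bud came from a single line, so male sterility and other line differences cannot be told apart. At stage 1, edgeR called 2 of 152 tested members at an adjusted p under 0.05 (1.32%, against 1.16% of all tested genes). Of these 1 was higher in sterile buds (all tested genes 0.0737%) and 1 lower (1.09%). At stage 2, 9 were called (5.92%, against 2.83%), 5 of them higher (all tested genes 0.604%) and 4 lower (2.23%). At stage 3, 3 were called (1.97%, against 0.737%), 2 of them higher (all tested genes 0.17%) and 1 lower (0.568%). DESeq2 called 2, 10 and 4 members at the 3 stages, against 1.72%, 3.54% and 1.32% of all tested genes. An unadjusted p under 0.05 was reached by 23, 37 and 23 members, 15.1%, 24.3% and 15.1% of those tested, against 10.1%, 15.1% and 10.8% of all tested genes.

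These stage counts moved with single libraries. Stage 1 gave 0 calls without sterile replicate 1 and 1 without any other of its libraries. Stage 2 gave 2 calls without sterile replicate 1, 3 without sterile replicate 2 and 4 without fertile replicate 2. Stage 3 gave 0 calls without sterile replicate 2, 0 without fertile replicate 3, and 1 when either sterile replicate 3 or fertile replicate 2 was left out. Without every library numbered 3 the counts were 1, 3 and 0.

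The difference averaged over the 3 stages asks which members differ between the lines in the mean of the 3 stage differences. A call on it does not need a difference at each stage. With the 17 libraries taken as independent, it called 23 of 152 members (15.1%, against 9.74% of all tested genes), of which 15 were higher in sterile buds (9.87%, against 3.49%) and 8 lower (5.26%, against 6.25%). Over all tested genes the split was 473 higher and 848 lower. Of the 23 called members 9 were also called at a stage, against 407 of the 1321 called genes of the whole table. The 15 higher members had log2 differences of 0.51 to 3.44 and the 8 lower members of -0.59 to -9.15. DESeq2 called 22 members (14.5%, against 10.2%), of which 21 were among the 23. An unadjusted p under 0.05 was reached by 48 members (31.6%, against 23.3%). Without every library numbered 3 the count was 13, all of them among the 23, with 7 higher and 6 lower, a more even split than 15 and 8. The share of all tested genes called in that fit is not given here.

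The 17 libraries were not fully independent. Within a line, libraries of different stages that share a replicate number deviated from their group means together, with a median residual correlation of 0.285 and 14 of 16 pairs over 0.1, against 5 of 32 pairs of different numbers. The averaged difference thus rests on 6 sets of line and number. A limma voom fit, added after these correlations were seen, called 17 of 152 members with libraries taken as independent (11.2%, against 6.77% of all tested genes). With a correlation of 0.254 estimated among libraries of a set it called 6 (3.95%, against 2.24%), and all 6 were among the 23. They were Solyc02g079490, Solyc02g079500, Solyc02g080530 and Solyc02g081400, higher in sterile buds, and Solyc02g079780 and Solyc02g080880, lower. Solyc02g081400 and Solyc02g080880 are named after their values were seen. The other 17 averaged calls, which also enter the positions counted along the segment, did not pass with that correlation.

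The called members kept their direction across stages. The sign was the same at all 3 stages in 23 of 23 called members, against 1295 of the 1321 genes called in the whole table. That sign is not independent of the call, because the average is built from the stages, and the stages share sets of libraries. Among all 152 tested members, 53 were higher in sterile buds at all 3 stages (34.9%, against 25.9%) and 34 lower (22.4%, against 23.3%). The log2 difference was above 0 in 80, 90 and 87 tested members at stages 1, 2 and 3, against 49.5%, 52.7% and 52.2% of all tested genes, and in 87 on average (57.2%, against 52.5%). The median log2 difference of the tested members was 0.03, 0.08 and 0.09 at the 3 stages and 0.07 on average, against 0.02 on average over all tested genes.

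**Figure D1:**
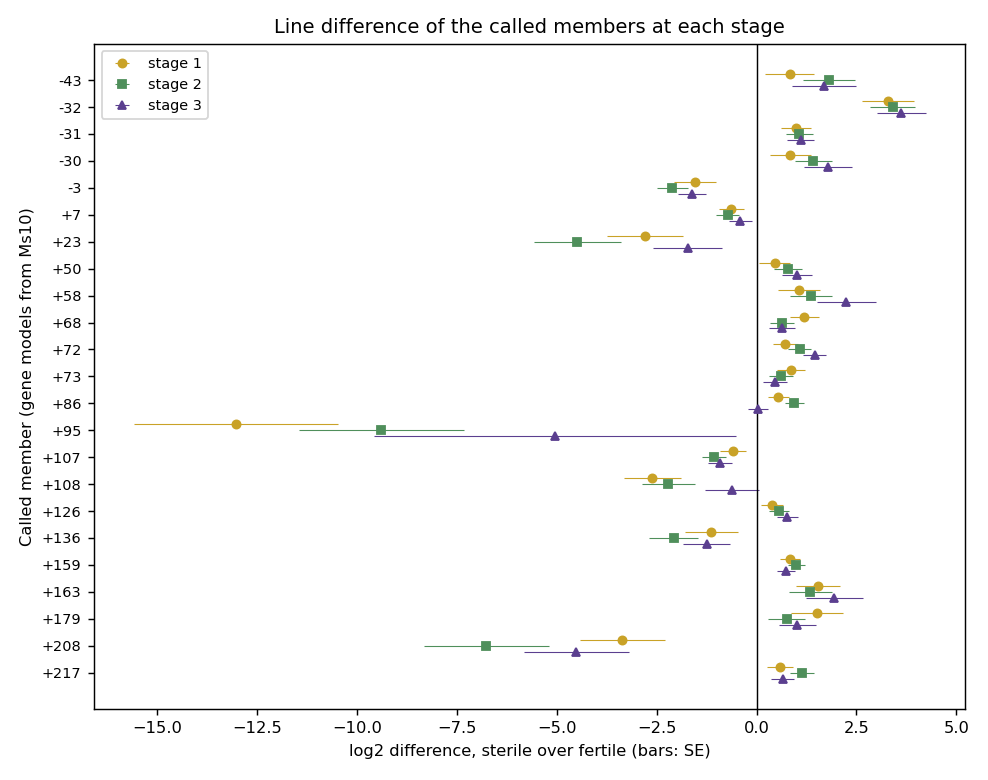
Log2 difference of sterile over fertile buds (x axis) at stages 1, 2 and 3 for the 23 members called on average. Members are listed by their position in gene models from Ms10 (y axis). Bars are SE derived from the F value of the edgeR test. In each member the 3 points lie on the same side of 0; for the members at +95 and +208 some sterile groups held 0 reads, and their fitted values depend on the prior count.

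Whether the line difference changed with stage was tested jointly over the stages. edgeR called 0 of 152 members (0% of all tested genes), 5 members had an unadjusted p under 0.05 (3.29%, against 2.69%), and DESeq2 called 0 members (0.103% of all tested genes).

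A description without a model asks in which members every sterile library lay on one side of every fertile library of its stage, at all 3 stages. In 8 tested members the sterile libraries were the higher ones (5.26%, against 1.06% of all tested genes), and in 5 the lower ones (3.29%, against 1.64%). Of these 13 members, 12 were also called on average. The exception, Solyc02g080270, is named after its values were seen and had an averaged log2 value of -0.60 (SE 0.19, edgeR adjusted p = 0.0579).

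Along the segment, the called members lay on both sides of Ms10, and most bins of consecutive models held mainly 1 direction. The members were cut into 6 consecutive bins of 50 (46 in the last), each with 21 to 32 tested. The first bin held 4 higher and 0 lower members, and the second, which spans Ms10, held 0 higher and 3 lower. The third held 6 higher and 0 lower, the fourth 1 and 4, the fifth 3 and 0, and the sixth 1 and 1. The called shares were 19.0%, 14.3%, 18.8%, 22.7%, 10.3% and 7.41% of tested members. Among tested models, 7 of the 23 called members (30.4%) stood next to a called member of the same direction, against 197 of 1321 called genes (14.9%) in the whole table. The 7 lay in runs of 3, 2 and 2. A share of called neighbours also rises with the share called, and 9.87% of members were called higher, against 3.49% of all tested genes. The 2 neighbour shares thus do not show whether calls cluster in the segment. Bins and neighbours were counted without a test.

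**Figure D2:**
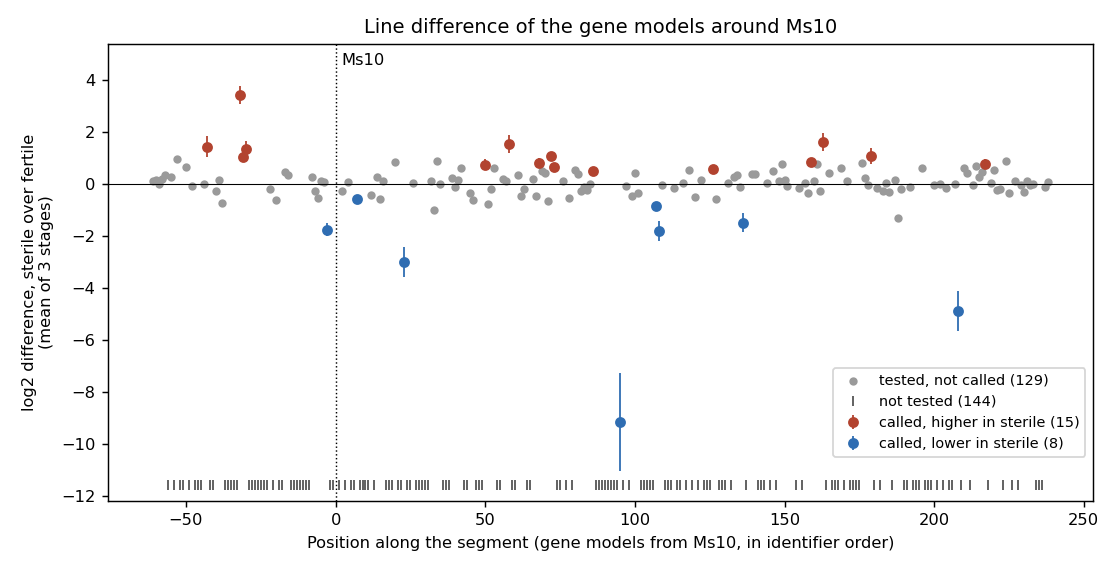
Averaged log2 difference of sterile over fertile buds (y axis) against position in gene models from Ms10 (x axis; Ms10 at 0), with 15 higher called members in red and 8 lower in blue (bars are SE), 129 tested members that were not called in grey, and 144 untested members as ticks. The called members nearest to Ms10, at -3, +7 and +23, are all lower in sterile buds, and the 4 before them are all higher. With the estimated correlation within sets, the limma adjusted p was 0.0279 at -3, 0.154 at +7 and 0.0528 at +23. Of the 4 before them, only Solyc02g079490 and Solyc02g079500 passed in that fit.

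The calls were set beside the rest of chromosome 2 to show how the segment compares. Of the tested models outside the range on chromosome 2, 143 of 1328 were called on average (10.8%), 54 higher and 89 lower. Among the 300 models before the segment the share was 8.76% (12 of 137), and among the 300 after it 14.7% (24 of 163). The lines were separated at all 3 stages in 8.55% of tested members, 5.84% of tested models before, 3.68% after and 3.39% in the rest of the chromosome. A line difference was called at any stage in 5.92% of tested members, 2.92% of tested models before, 7.98% after and 3.46% in the rest of the chromosome. These shares were not tested against each other. In bins of 100 models along the chromosome, the 3 bins of the segment had called shares of 17.1%, 20.8% and 8.62%. The 28 other bins with at least 20 tested models ran from 3.23% to 26.7%. Of these, 1 reached the highest of the segment and 17 reached the lowest. Separated shares were 12.2%, 9.43% and 5.17% in the segment and 0% to 11.1% in the other bins, of which 5 reached the lowest of the segment.

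**Figure D3:**
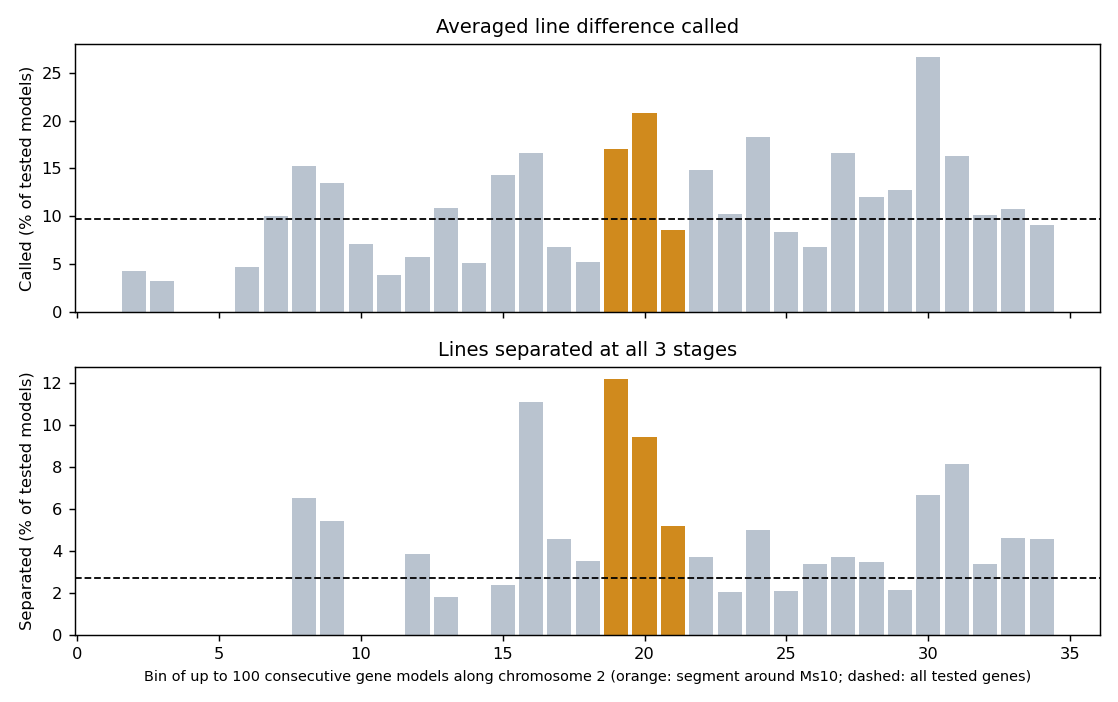
Share of tested models called on average (upper panel, %) and with lines separated at all 3 stages (lower panel, %) in bins of up to 100 consecutive models along chromosome 2 (x axis), with the 3 bins of the segment in orange, all tested genes as a dashed line, and bins with under 20 tested models not drawn. Called shares of the segment (17.1%, 20.8% and 8.62%) lie within the range of the other bins, and the first separated share (12.2%) lies above all of them.

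The member with the smallest averaged adjusted p was Solyc02g079490, 32 models before Ms10. Sterile replicates 1, 2 and 3 held 32, 25 and 19 reads at stage 1, 25, 21 and 19 at stage 2, and 15, 24 and 21 at stage 3. Fertile replicates 2 and 3 held 3 and 2 reads at stage 1, and replicates 1, 2 and 3 held 3, 4 and 0 at stage 2 and 2, 3 and 0 at stage 3. Every sterile library lay above every fertile one. Within each stage, the rule for naming this member required that. As CPM, sterile buds stood at 39.8 ± 13.9, 34.9 ± 7.33 and 36.2 ± 10.4 at stages 1, 2 and 3 and fertile buds at 3.68 ± 0.454, 2.93 ± 2.58 and 2.85 ± 3.01. The log2 difference was 3.29 (SE 0.65, edgeR adjusted p = 0.0167), 3.41 (SE 0.57, adjusted p = 0.00284) and 3.62 (SE 0.61, adjusted p = 0.0103). On average it was 3.44 (SE 0.35, edgeR adjusted p = 1.19e-05), or 10.8-fold, and the adjusted p ran from 2.47e-13 to 0.000471 over 23 other edgeR and DESeq2 fits. With the estimated correlation within sets its limma adjusted p was 0.00565. The stage 1 call was lost without sterile replicate 1 (edgeR adjusted p = 0.067), fertile replicate 2 (0.139) or fertile replicate 3 (0.0773), and the stage 3 call without sterile replicate 2 (0.061) or fertile replicate 3 (0.0526).

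The models next to it, Solyc02g079500 and Solyc02g079510, were higher in sterile buds too, which makes the longest run of called neighbours in the segment. Solyc02g079500 is named after its values were seen. Its sterile libraries lay between 56.9 and 150.2 CPM and its fertile libraries between 32.0 and 52.0 CPM, so the lines did not overlap. Its averaged log2 difference was 1.05 (SE 0.20, edgeR adjusted p = 0.0031). For Solyc02g079510, sterile buds stood at 27.9 ± 2.95, 26.9 ± 6.50 and 15.8 ± 4.42 CPM at stages 1, 2 and 3 and fertile buds at 14.9 ± 0.313, 9.54 ± 5.41 and 4.37 ± 4.05 CPM. The lines did not overlap within a stage, which the rule for naming this member required. The averaged log2 difference was 1.35 (SE 0.31, edgeR adjusted p = 0.00926). That call was lost without every library numbered 3 (adjusted p = 0.0665) and with the estimated correlation (limma adjusted p = 0.0765). All assigned reads of the 23 called members were unique (lowest share 100%).

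**Figure D4:**
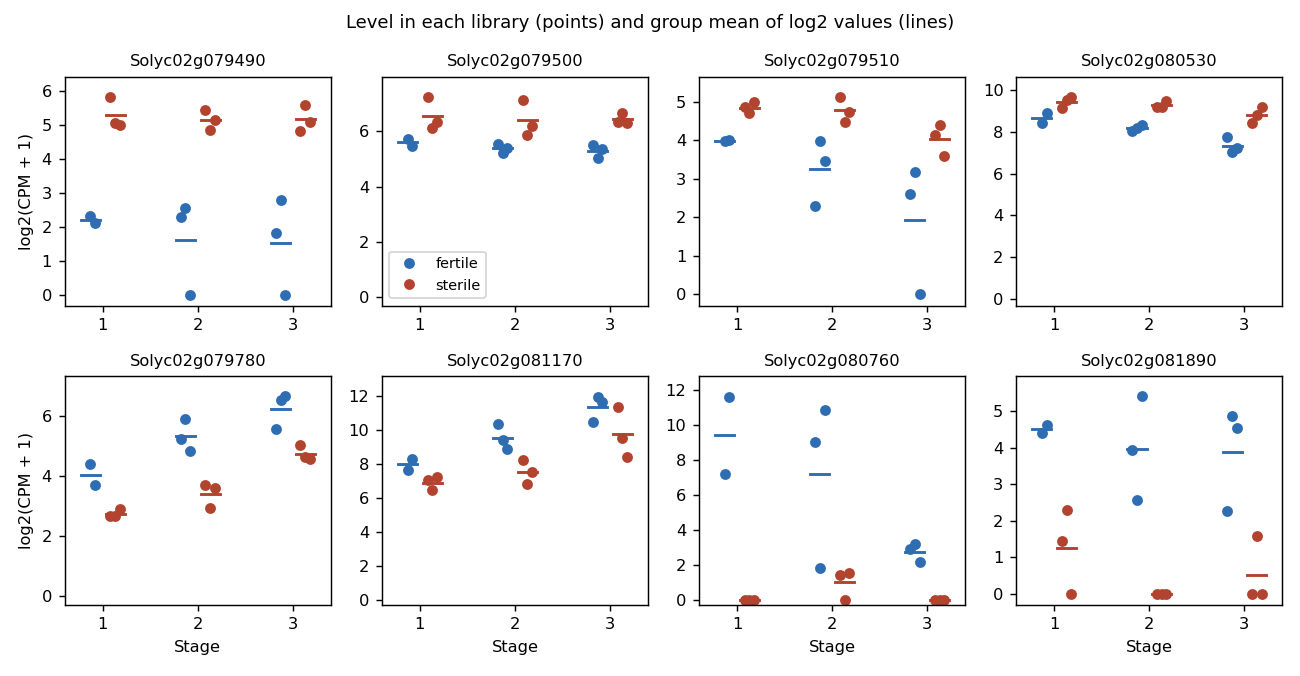
Level of 8 members in each library as log2(CPM + 1) (y axis) at stages 1 to 3 (x axis), fertile in blue and sterile in red, with lines at the group means of these values. In Solyc02g079490 and Solyc02g079500 all sterile libraries lie above all fertile ones, and Solyc02g080760 has 0 reads in 7 of 9 sterile libraries.

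Beside Ms10, the nearest tested model before it was lower in sterile buds and the nearest after it did not pass the test. Solyc02g079780, 3 models before Ms10, held 3, 4 and 4 reads in sterile replicates 1, 2 and 3 at stage 1, 7, 5 and 6 at stage 2, and 17, 12 and 14 at stage 3. Fertile replicates 2 and 3 held 15 and 7 reads at stage 1, and replicates 1, 2 and 3 held 28, 48 and 19 at stage 2 and 36, 45 and 57 at stage 3. Every sterile library lay below every fertile library of its stage on the CPM scale, and the means of both lines were highest at stage 3. The averaged log2 difference was -1.75 (SE 0.25, edgeR adjusted p = 0.000256). By stage it was -1.53 (SE 0.52, edgeR adjusted p = 0.223), -2.10 (SE 0.40, adjusted p = 0.00716) and -1.61 (SE 0.35, adjusted p = 0.0388). The stage 3 call was lost when any 1 library of that stage other than fertile replicate 1 was left out, with a highest edgeR adjusted p of 0.461 over the alternatives. Solyc02g079830, 2 models after Ms10, had 17.4 ± 10.3, 22.3 ± 1.34 and 18.9 ± 3.00 CPM in sterile and 25.9 ± 1.05, 20.4 ± 5.94 and 21.8 ± 5.46 CPM in fertile buds. Its lines overlapped at every stage, and its averaged log2 difference was -0.25 (SE 0.23, edgeR adjusted p = 0.552).

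The largest fitted difference in the segment was at Solyc02g080760, 95 models after Ms10, and it varied strongly among fertile libraries. Its fertile reads were 108 and 1857 in replicates 2 and 3 at stage 1, 391, 2 and 1291 in replicates 1, 2 and 3 at stage 2, and 5, 4 and 2 at stage 3. Sterile reads were 0 in each library of stages 1 and 3, and 1, 0 and 1 in replicates 1, 2 and 3 at stage 2. The fertile mean was 1630.5 ± 2102 CPM at stage 1, 788 ± 957 at stage 2 and 5.95 ± 2.30 at stage 3. Taking a floor of 3 reads over the sterile group, stage 1 levels in sterile libraries were lower by at least 949.96-fold, with an edgeR adjusted p of 0.0264. Most of that bound came from fertile replicate 3, and without it the bound was 93.7-fold. The ratio of fertile to sterile reads at stage 2 was 698 (95% interval 193 to 5767, counting error only; edgeR adjusted p = 0.0274), and 234 (64.4 to 1941) without fertile replicate 3. Fertile replicate 2, at 2.45 CPM, lay near the highest sterile library, at 1.82 CPM. On the same floor, the stage 3 bound was 3.31-fold (edgeR adjusted p = 0.751). The averaged call (edgeR adjusted p = 0.0079) was lost without every library numbered 3 (0.0579) and in limma voom with libraries independent (0.342) or correlated (0.588), and the stage 1 and 2 calls also without any 1 sterile library of the stage or fertile replicate 3. In whole buds, fewer cells of a type and less RNA per cell cannot be told apart.

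Solyc02g081890, 208 models after Ms10, was also low in sterile buds. Its fertile reads were 15 and 14 in replicates 2 and 3 at stage 1, 11, 4 and 29 in replicates 1, 2 and 3 at stage 2, and 3, 14 and 13 at stage 3. Its sterile reads were 1, 3 and 0 in replicates 1, 2 and 3 at stage 1, 0 in each at stage 2, and 0, 1 and 0 at stage 3. The lines did not overlap at any stage, which the rule for naming this member required. The averaged log2 difference was -4.88 (SE 0.77, edgeR adjusted p = 0.000967, 1.58e-07 to 0.0225 over 23 other edgeR and DESeq2 fits), a call lost with the estimated correlation within sets (limma adjusted p = 0.15). At stage 2 the level was at least 12.2-fold lower (edgeR adjusted p = 0.0283), a call lost without any 1 sterile library of that stage or fertile replicate 3. Without fertile replicate 3 the bound was 5.96-fold.

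Solyc02g080040, 23 models after Ms10, is named after its values were seen. Its reads summed to 11 in sterile and 79 in fertile libraries, and its lines did not overlap at any stage. By the fitted averaged difference its level was 7.99-fold lower in sterile buds (SE 0.57 on the log2 scale, edgeR adjusted p = 0.00259), a call just lost with the estimated correlation (limma adjusted p = 0.0528). By stage the fitted fold ran from 3.30 (stage 3, edgeR adjusted p = 0.492) to 22.4 (stage 2, edgeR adjusted p = 0.0317). Stage 2 held 1 sterile read and 37 fertile reads, so the size of the difference is uncertain.

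Among the members higher in sterile buds, Solyc02g080530, 72 models after Ms10, was abundant in every library. Its sterile levels were 554, 734 and 799.6 CPM in replicates 1, 2 and 3 at stage 1, 582, 572 and 712 at stage 2, and 347, 439.9 and 588 at stage 3. Its fertile levels were 347 and 468 CPM in replicates 2 and 3 at stage 1, 262, 287 and 320.2 in replicates 1, 2 and 3 at stage 2, and 214, 132 and 149 at stage 3. Each sterile library lay above each fertile library of its stage, which the rule for naming this member required at stage 3. The averaged log2 difference was 1.08 (SE 0.17, edgeR adjusted p = 0.00064). At stage 3 it was 1.45 (SE 0.29, edgeR adjusted p = 0.0228), a call lost without sterile replicate 2 or 3, fertile replicate 2 or 3, or when only the groups compared were fitted (0.0593). Its neighbour Solyc02g080540, named after its values were seen, had an averaged log2 difference of 0.64 (SE 0.18, edgeR adjusted p = 0.0321; limma adjusted p = 0.117 with the estimated correlation).

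Solyc02g081980, 217 models after Ms10, stood at 363 ± 35.7, 455 ± 161 and 454 ± 101 CPM in sterile and 232 ± 12.8, 204 ± 31.5 and 285 ± 16.5 CPM in fertile buds, by stage. No library of one line overlapped the other within a stage, which the rule for naming this member required at stage 2. The averaged log2 difference was 0.79 (SE 0.18, edgeR adjusted p = 0.00838; limma adjusted p = 0.054 with the estimated correlation). The stage 2 log2 difference of 1.14 (SE 0.30, edgeR adjusted p = 0.0452) lost its call without sterile replicate 1 or 3 or fertile replicate 1 or 2, without every library numbered 3 (0.19), and when only the groups compared were fitted (0.183).

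The first and last members of the segment did not differ past the threshold. Solyc02g079190 had an averaged log2 difference of 0.12 (SE 0.17, edgeR adjusted p = 0.744), and Solyc02g082190 of 0.07 (SE 0.18, edgeR adjusted p = 0.878). A p that misses the threshold does not show equal levels.

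Stage 3 was compared with stage 1 within each line to ask which members change as buds develop. In fertile buds 12 of 152 members were called (7.89%, against 6.31% of all tested genes), 4 higher at stage 3 (2.63%, against 3.45%) and 8 lower (5.26%, against 2.86%). In sterile buds 4 were called (2.63%, against 2.06%), 3 higher (1.97%, against 1.43%) and 1 lower (0.658%, against 0.634%). DESeq2 called 14 and 5 members, against 6.57% and 3.32% of all tested genes. An unadjusted p under 0.05 was reached by 35 and 29 members, against 21.1% and 16.9% of all tested genes. The 4 members called in sterile buds were also called in fertile buds in the same direction, 33.3% of the fertile calls and 100% of the sterile ones. The fertile count fell to 3 without stage 3 replicate 2 or 3, to 4 without stage 1 replicate 2 and to 0 without stage 1 replicate 3. The sterile count fell to 0 without stage 3 replicate 1 or any 1 library of stage 1. Without every library numbered 3 the fertile count was 0. With the correlation within sets, limma voom called 16 members in fertile (8.93% of all tested genes) and 10 in sterile buds (4.68%).

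Solyc02g081170, 136 models after Ms10, rose most with stage among members that rose in both lines. Sterile replicates 1, 2 and 3 held 75, 67 and 91 reads at stage 1, 175, 85 and 101 at stage 2, and 1432, 380 and 217 at stage 3. Fertile replicates 2 and 3 held 150 and 188 reads at stage 1, and replicates 1, 2 and 3 held 1006, 559 and 328 at stage 2 and 1127, 2006 and 1847 at stage 3. The lines overlapped at stage 3, where sterile replicate 1 lay above fertile replicate 1 on the CPM scale. The log2 difference between stages 3 and 1 was 3.59 in fertile (SE 0.76, edgeR adjusted p = 0.0117) and 3.48 in sterile buds (SE 0.65, edgeR adjusted p = 0.0149), and the averaged line difference was -1.49 (SE 0.36, edgeR adjusted p = 0.0127; limma adjusted p = 0.0687 with the estimated correlation). The fertile call was lost without either stage 1 library, and the sterile call without stage 3 replicate 1 or any 1 stage 1 library. Solyc02g079780 rose by log2 2.37 in fertile (SE 0.41, edgeR adjusted p = 0.00463) and 2.29 in sterile buds (SE 0.46, edgeR adjusted p = 0.0204). Its sterile call was lost without stage 3 replicate 1 or any 1 stage 1 library.

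Solyc02g080610, 80 models after Ms10, fell with stage in both lines. It stood at 65.5 ± 4.30 CPM at stage 1 and 17.7 ± 10.4 at stage 3 in sterile buds, and at 51.8 ± 2.10 and 12.4 ± 5.84 CPM in fertile buds. The log2 difference was -1.69 in sterile (SE 0.37, edgeR adjusted p = 0.0262) and -1.93 in fertile buds (SE 0.42, edgeR adjusted p = 0.0128). The sterile call was lost without stage 3 replicate 1 or 2 or any 1 stage 1 library, and when only the groups compared were fitted (0.0512).

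In fertile buds, Solyc02g080760 fell from stage 1 to stage 3 by 7.97 on the log2 scale (SE 1.77, edgeR adjusted p = 0.0205), a call lost without stage 1 replicate 3 or any 1 stage 3 library and in limma voom with the correlation (0.183). Without stage 1 replicate 3 the log2 value was -4.41. Solyc02g080390, 58 models after Ms10, fell by 2.80 (SE 0.73, edgeR adjusted p = 0.0314), a call lost without any 1 of the libraries compared and with the estimated correlation (0.0656). It was higher in sterile buds on average (log2 1.56, SE 0.35, edgeR adjusted p = 0.008; limma adjusted p = 0.145 with the estimated correlation). Solyc02g080200, 39 models after Ms10, held 0 reads in both fertile stage 1 libraries and 16, 6 and 14 in replicates 1, 2 and 3 at stage 3, at least 8.69-fold higher (edgeR adjusted p = 0.0179), a call lost without either stage 1 library. Only 4.41% of its assigned reads were unique, so its values are uncertain.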

How the data were processed

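RNA-seq libraries of tomato floral buds were analysed from the tables deposited for 17 samples. A fertile stage 1 library numbered 1 was not among the 17 samples. Per the file headers, the deposited tables give counts of total and unique gene reads per gene model, and RPKM, which equalled total reads over length and library total (0 values differed by more than 1e-06 of their size). Of 34727 deposited lengths, 34726 divide by 3, as coding lengths do. The sources used here name no aligner, counting program, annotation or strand setting.

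Total gene reads were fitted with edgeR 4.0.16 in R 4.3.3 (TMM, filterByExpr, quasi-likelihood test, 1 coefficient for each of 6 groups), with Benjamini-Hochberg adjustment over 13568 tested genes and a threshold of 0.05. DESeq2 1.42.0, RLE size factors, unique reads, no filter, a replicate block and left-out libraries were alternatives. The code was tested on simulated data. CPM are reads over library totals. Each SE is the absolute log2 difference divided by the square root of the F value of its edgeR test. It is thus derived, not reported by the fit, and depends on the prior count where a group holds 0 reads. Intervals and the floor of 3 reads cover counting error only. Members, lists and rules were chosen with earlier results of these data known. Named by rule were, per comparison, up to 2 called members in each direction with the largest difference, at least 5 CPM and no overlap, the tested members nearest Ms10, the end members and the 2 with the highest RPKM. Same-numbered libraries of the 2 lines did not all deviate together, so numbers were not treated as pairs across lines. Libraries numbered 3 did, with residual correlations between the lines of 0.225, 0.145 and 0.228 at stages 1, 2 and 3. Within a line, same-numbered libraries deviated together in 14 of 16 pairs. Fits with limma 3.58.1 voom were added after the data were seen. They took libraries as independent, or with a correlation (duplicateCorrelation) among libraries of one line and number.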

Additional observations from a re-analysis of the deposited data

Results flagged for a closer look

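In 2 tested members (1.32%, against 1.20% of all tested genes) the lines did not overlap at 2 stages, in opposite directions; both are named after their values were seen. For Solyc02g079320, 48 models before Ms10, the stage 1 means were 33.5 ± 8.22 CPM (sterile) and 52.7 ± 0.913 CPM (fertile), and the stage 2 means 31.9 ± 7.19 and 18.5 ± 2.26 CPM. The stage log2 values of -0.70 and 0.75 differ by 1.44. For Solyc02g079960, 15 models after Ms10, the stage 1 means were 12.8 ± 3.01 CPM (sterile) and 8.37 ± 2.41 CPM (fertile). Its stage 1 lines barely missed each other. Sterile replicate 1 (10.48 CPM) and fertile replicate 3 (10.07 CPM) held 6 reads each. At stage 2, replicates 1, 2 and 3 held 4, 8 and 7 reads in sterile and 16, 23 and 14 in fertile libraries. The stage log2 values of 0.57 and -1.22 differ by 1.79. The joint test of a change with stage gave an edgeR adjusted p of 1 for both.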

How the results depend on the processing

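For the averaged line difference, 23 members were called, 23 with RLE size factors and with unique reads, 22 with DESeq2, 27 without a filter, 25 with the replicate block and 13 without every library numbered 3; leaving out single libraries gave 16 to 26. The limma voom fits, added after seeing the data, called 17 with libraries independent and 6 with those of one line and number correlated. At stage 1 the 2 calls became 4 without a filter, 1 without every library numbered 3, and 0 to 1 without single libraries. At stage 2 the 9 calls became 14 with the replicate block, 3 without every library numbered 3, 3 when only the groups compared were fitted, and 2 to 7 without single libraries. At stage 3 the 3 calls became 5 without a filter, 0 without every library numbered 3, 1 when only the groups compared were fitted, and 0 to 4 without single libraries. The 12 fertile stage calls became 0 without every library numbered 3 and 0 to 10 without single libraries; the voom fits gave 8 and 16. The 4 sterile ones became 7 with the replicate block, 2 when only the groups compared were fitted, and 0 to 5 without single libraries; the voom fits gave 3 and 10. The cause of these moves was not tested, and the shares of all tested genes in the fits with left-out libraries are not given here. Members with reads in sterile buds alone numbered 1 at a minimum of 15 reads and 0 to 1 without single libraries (1 without fertile stage 3 replicate 1). The shares of all models at these settings are not given here. Separated members numbered 8 to 11 higher and 5 to 6 lower, and the averaged median log2 difference was 0.05 to 0.09, without single libraries. Counted as pairs of a call named by rule and an edgeR or DESeq2 alternative, 214 kept the call, 75 lost it and 0 reversed. The limma voom fits are not in this tally. With the estimated correlation, the averaged calls of Solyc02g079510, Solyc02g080760 and Solyc02g081890 were lost and that of Solyc02g079490 was kept. Same-numbered libraries of one stage and different lines had residual correlations of -0.014 to 0.228. The 3 of 8 pairs over 0.1 were those numbered 3. At stage 2, 3 of 6 libraries, and at stage 3, 2 of 6, correlated best with their own number. Within a line, same-numbered libraries of different stages had correlations of 0.00448 to 0.539, with 14 of 16 over 0.1, and 4 of 6 sterile libraries of stages 1 and 3 correlated best with their own number. Where leaving out a library left fertile stage 1 with 1 library, that library was assumed to vary like the other groups. Low depth limits the 144 untested members.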
